A study of Homo sapiens with 66 samples.

Results

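The guanylate-binding proteins described here are GBP1, GBP2, GBP3, GBP4, GBP5 and the pseudogene GBP1P1, 6 of the 57820 genes in the deposited count tables, chosen by their Ensembl identifiers. THP-1, an established human monocytic leukaemia cell line that carried a Cas9 transgene, received guide RNAs (gRNAs) by nucleofection, and its RNA was sequenced after depletion of ribosomal RNA. In study 1 all cells were STING deficient and came from 1 clone, so that neither the controls nor the targeted cells could signal through this DNA-sensing adaptor. The groups of study 1 were CTRL (a non-targeting gRNA), GFP (a gRNA against GFP, labelled as a further control), hnRNPC, ADAR, and ADAR+hnRNPC, each on days 3, 4 and 5 after nucleofection, plus CTRL cells given IFN-α on day 3 and harvested on day 4, which makes 16 groups of 3 libraries. In study 2, on day 4, a wild-type Cas9 clone received other gRNAs against the same genes, and total and cytosolic RNA were sequenced for CTRL, hnRNPC, ADAR and ADAR+hnRNPC cells, with nuclear RNA for hnRNPC cells, which makes 9 groups of 2 libraries. Each clone is 1 line, and the study describes its replicates as independent experiments, so the p-values measure the spread between experiments within 1 clone.

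Guanylate-binding proteins are large GTPases of the dynamin superfamily that cells make in response to interferons. They gather on membranes that hold intracellular bacteria and parasites, where the coat formed by GBP1 with GBP2, GBP3 and GBP4 recruits and activates caspase-4, and GBP1, GBP2 and GBP5 end in a CaaX motif that is prenylated and anchors them in membranes. GBP2 and GBP5 also inhibit the protease furin, which matures viral envelope proteins, and GBP1P1 is a transcribed pseudogene of GBP1. ADAR converts adenosine to inosine in double-stranded RNA, and hnRNPC is a nuclear protein that binds uridine tracts and limits the use of cryptic splice sites in Alu repeats.

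All 6 genes lie in 1 cluster on chromosome 1, given here in GRCh37 with GENCODE V19 identifiers. The spans and canonical transcripts are those of a later GENCODE release lifted to GRCh37, so they can differ from the V19 features used for counting. GBP3 (ENSG00000117226.7) spans chr1:89472362-89488577, GBP1 (ENSG00000117228.9) chr1:89517565-89531043, GBP2 (ENSG00000162645.8) chr1:89571815-89616139, GBP4 (ENSG00000162654.8) chr1:89646827-89664625 and GBP5 (ENSG00000154451.10) chr1:89721872-89738543, all on the minus strand. GBP1P1 (ENSG00000225492.2) spans chr1:89875878-89891802 on the plus strand. The canonical transcripts have 11 exons in GBP1, GBP2, GBP3 and GBP4, 12 in GBP5 and 9 in GBP1P1. GBP1, GBP3 and GBP1P1 are close copies of each other, and only uniquely aligned reads were counted, so their split of reads is uncertain. A long non-coding RNA lies antisense to GBP5, and the strand setting of the counting is not given in the sources used here, so its reads could not be told apart from those of GBP5. The annotated extent of GBP2 overlaps GBP7, and how reads in the shared stretch were assigned is not given in the sources used here, so the GBP2 counts carry that uncertainty.

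Promoter sequences were available for 3 of the 6 genes (GBP1, GBP3 and GBP4, RefSeq, GRCh38.p14), and they are shown because they hold matches to an element known for its response to interferon. The interferon-stimulated response element is bound by a complex that holds STAT2 and IRF9, and by IRF1. The gamma-activated site is a second element, named for its response to interferon-γ. Both strands from 250 bases before to 50 bases after each start were searched for the response element (GAAA, any 2 bases, GAAA) and the gamma-activated site (TTC, any 3 bases, GAA), which reads the same on both strands. The response element was found in all 3 promoters and in 3.57% of 35116 promoters of the same length, and the gamma-activated site in that of GBP3 and in 7.66% of all. The 30 bases around each element are given 5′ to 3′ on the strand of the gene (minus), with matches in capitals.
GBP1, chr1:89065316-89065345: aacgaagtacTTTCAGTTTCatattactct
GBP3, chr1:89022853-89022882: cTTCCTTGAAagaagtacTTTCAGTTTCat
GBP4, chr1:89198927-89198956: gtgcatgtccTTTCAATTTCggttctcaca
In all 3 genes the response element was read on the strand opposite to the gene. The element of GBP1 lay at bases -127 to -118 from the start (chr1:89065326-89065335), that of GBP4 spanned the start at -4 to 6 (chr1:89198937-89198946), and that of GBP3 lay at 3 to 12 (chr1:89022855-89022864), after its gamma-activated site at -15 to -7 (chr1:89022873-89022881), with the first transcribed base as 1. GBP1 and GBP3 carried the same letters in the element and GBP4 differed from them. These matches are a description of the sequence, not of binding in these cells.

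The libraries of study 1 held 95107690 to 152829008 counts and those of study 2 held 49666958 to 73873756. Levels are given as counts per 1000000 counts of the scaled library (CPM). A gene entered the tests when its average log2 CPM reached 0.5, as 13187 genes did in study 1 and 13637 in study 2. To be called, it needed a log2 fold change of 1 or more in size together with an adjusted p no higher than 0.05, taken from the quasi-likelihood test of edgeR after Benjamini-Hochberg correction across all tested genes and written as the edgeR adjusted p. HNRNPC mRNA lay at 294 to 417 CPM in the 18 libraries of study 1 with hnRNPC gRNA and at 725 to 869 CPM in the 30 others, and at 378 to 493 against 581 to 910 CPM in total RNA of study 2. ADAR mRNA was no check of the ADAR gRNA in study 1, at 349 to 396 CPM with that gRNA alone against 364 to 466 CPM in the 18 CTRL and GFP libraries, whereas in total RNA of study 2 it lay at 448 to 564 against 858 to 869 CPM. With both gRNAs it lay at 344 to 1509 CPM in study 1, where IFN-α cells lay at 1053 to 1373 CPM. In total RNA of study 2 it lay at 694 to 883 CPM with both gRNAs, overlapping with CTRL, so it was no check in those cells. Of 10 monocyte markers, 9 averaged at least 1 CPM in each study (summed 355 to 911 CPM in study 1 and 221 to 656 CPM in study 2). Of the markers of T cells (0 of 4), epithelial cells (0 of 3), fibroblasts (0 of 3) and endothelial cells (0 of 2 found), none reached that level, with list sums of at most 0.303, 0.142, 0.311 and 1.60 CPM in study 1 and 0.195, 0.110, 0.260 and 1.59 CPM in study 2. In such bulk samples, fewer cells that express a gene and less of its RNA per cell cannot be told apart.

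In untreated CTRL cells of study 1 the family was mostly GBP3. On day 4, per kilobase of canonical transcript, GBP3 stood at 5.997 ± 0.21 RPKM (SD, n = 3), GBP4 at 1.90 ± 0.14 RPKM and GBP5 at 0.845 ± 0.065 RPKM. GBP2 followed at 0.121 ± 0.032 RPKM, and GBP1P1 (0.0380 ± 0.0157 RPKM) and GBP1 (0.0247 ± 0.0153 RPKM) overlapped at the bottom. Thus 67.2% of the summed RPKM was GBP3, 21.2% GBP4, 9.47% GBP5 and 1.36% GBP2. With IFN-α on the same day GBP3 made 48.4% and GBP4 30.7% of the sum, GBP1P1 8.55% and GBP2 1.73%. In ADAR+hnRNPC cells on day 5 no gene held a majority. There GBP3 made 28.8%, GBP1P1 19.6%, GBP4 16.5%, GBP2 14.5%, GBP5 12.5% and GBP1 8.08% of the sum, and in each step of that order after GBP3 neighbours differed by less than the larger of their SDs (19.9 ± 7.9 RPKM for GBP1P1 and 16.7 ± 4.1 RPKM for GBP4, for example).

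**Figure D1:**
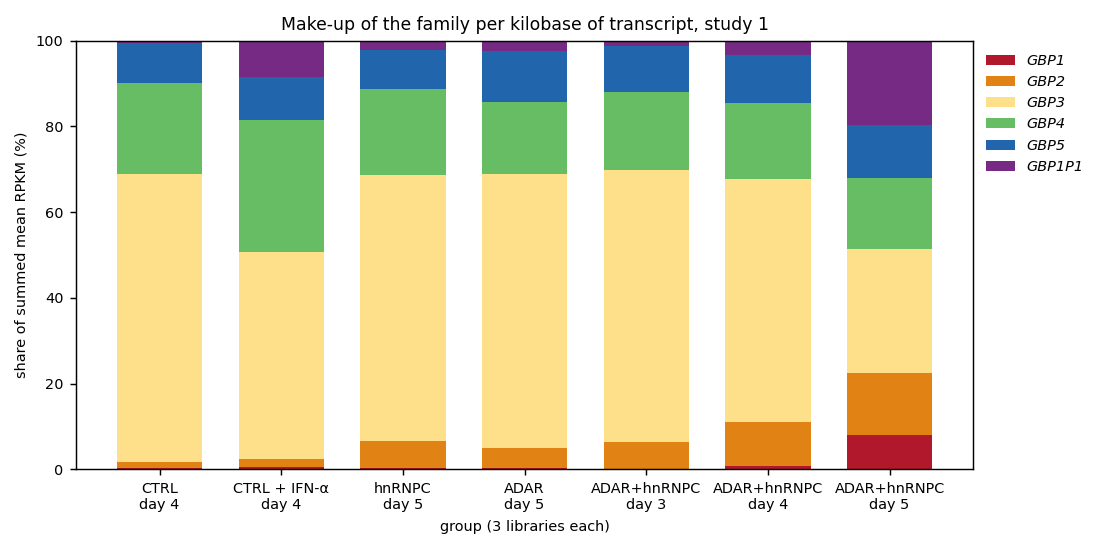
Make-up of the family per kilobase of transcript in study 1: each bar is 1 group of 3 libraries, and its segments are the 6 genes as a share (%) of their summed mean RPKM. GBP3 fills 67.2% of the bar of untreated CTRL cells on day 4 and 28.8% of that of ADAR+hnRNPC cells on day 5.

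Among CTRL cells, time after nucleofection alone called none of the 6 genes (CTRL day 5 against day 3, 0 of 6 by edgeR, 0 of 6 with p below 0.05 before adjustment, 0 by DESeq2 and limma-voom), against 0.667% of all genes called in either direction. GBP1 was close to absent in CTRL cells, with 5 to 20 counts per library over the 3 days, and GBP1P1 had 0 to 12 counts. Values for these 2 genes in such groups therefore rest on a handful of reads. Both passed the filter on low counts only through ADAR+hnRNPC cells of day 5: without those libraries their average log2 CPM was -2.87 and -1.39, so their presence among the tested genes is itself set by that group.

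IFN-α raised 5 of the 6 genes within a day, against 1.21% of all genes called higher, and left GBP3 under the fold threshold. GBP1P1 was at 2.16, 2.61 and 2.72 CPM with IFN-α and at 0.0368, 0.0472 and 0.0802 CPM in CTRL cells of day 4, a log2 difference of 5.45 ± 0.49 (SE, edgeR adjusted p = 2.78e-11). GBP4, a family member without a CaaX anchor, was at 36.8, 39.7 and 38.0 CPM against 12.5, 11.6 and 10.8 CPM, a log2 fold change of 1.71 ± 0.11 (edgeR adjusted p = 2.74e-15). For both genes every treated library stood far above every control library. GBP5 rose from 5.26, 6.12 and 5.88 CPM to 13.1, 14.3 and 14.1 CPM (log2 1.26 ± 0.12, edgeR adjusted p = 5.44e-11). GBP1 rose from 0.1196, 0.0337 and 0.0601 CPM to 0.227, 0.549 and 0.268 CPM (log2 2.34 ± 0.56, edgeR adjusted p = 0.00259), and GBP2 from 0.626, 0.364 and 0.494 CPM to 0.992, 1.22 and 2.10 CPM (log2 1.56 ± 0.43, edgeR adjusted p = 0.00964). These groups do not overlap either, but the highest GBP2 value came from 1 library: without IFN-α replicate 3 the log2 fold change was 1.17 and the edgeR adjusted p 0.108, without CTRL replicate 2 they were 1.38 and 0.0535, and GBP1 lost its call with limma-voom. GBP3 was at 27.4, 29.0 and 33.1 CPM with IFN-α against 18.1, 18.9 and 17.7 CPM, again without overlap, a log2 difference of 0.71 ± 0.08 (edgeR adjusted p = 1.88e-08) that falls short of the fold asked for. The median log2 difference was 1.64 over the 6 genes and 0.017 over all genes tested. An edgeR p below 0.05 before adjustment held for 4091 of all 13187 genes tested, in either direction. The targeted groups of day 4 were set against these same 3 CTRL libraries.

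**Figure D2:**
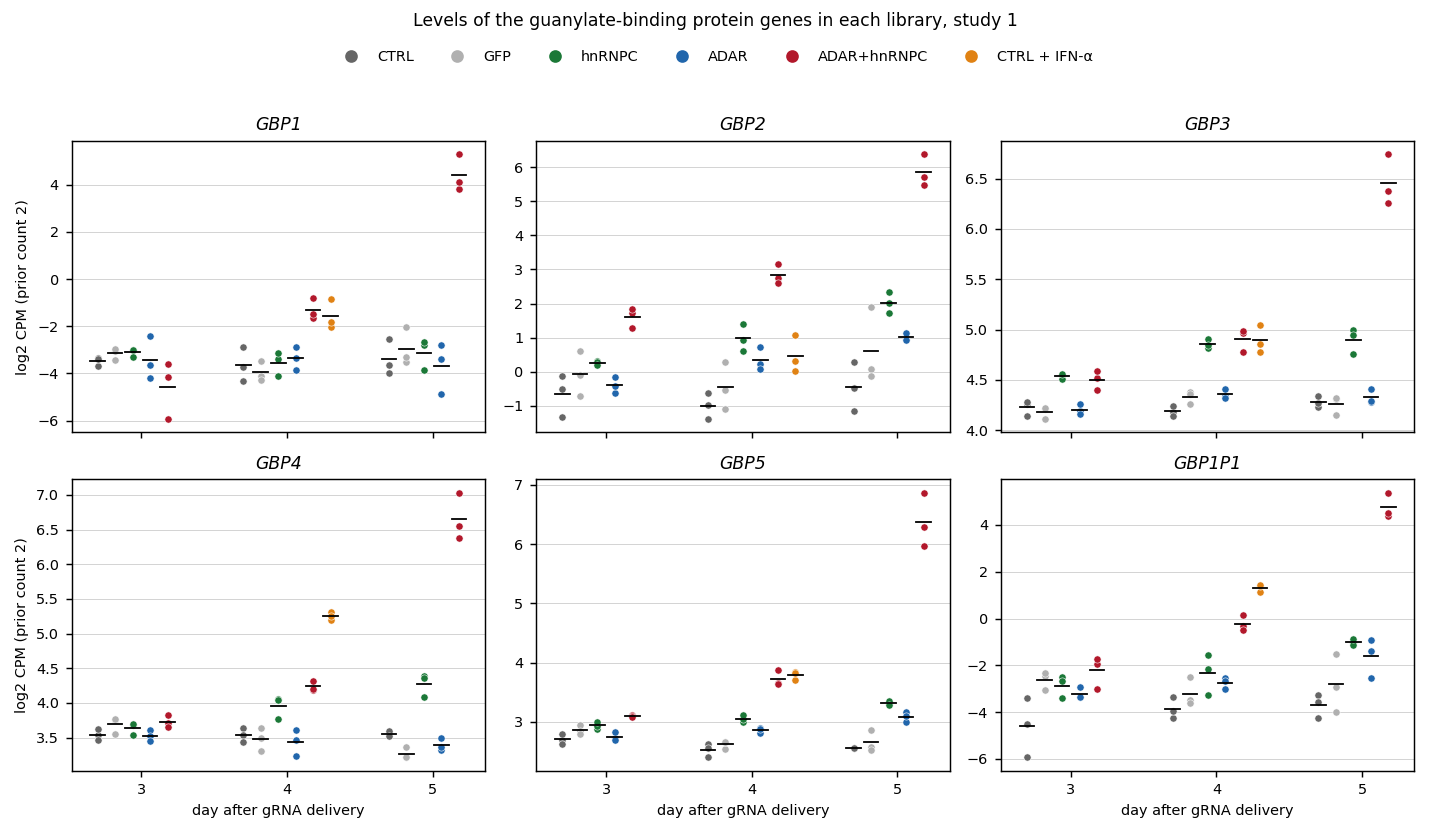
Level of each gene in every library of study 1: the vertical axes give log2 CPM (prior count 2, a scale of its own in each panel), the horizontal axes the day after gRNA delivery, points are libraries coloured by group and lines are means of 3. In all 6 panels the 3 ADAR+hnRNPC libraries of day 5 lie above every other library, and IFN-α lies highest on day 4 in GBP4 and GBP1P1.

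Targeting hnRNPC alone raised GBP2 and GBP1P1. On day 3 it called 1 of 6 genes (0.554% of all genes were called higher), on day 4 2 of 6 (1.58%) and on day 5 2 of 6 (3.96%). GBP2 was at 1.22, 1.21 and 1.12 CPM on day 3 in hnRNPC cells against 0.682, 0.381 and 0.907 CPM in CTRL cells, apart but short of a call (log2 0.85 ± 0.43, edgeR adjusted p = 0.114). It was at 1.88, 1.52 and 2.62 CPM on day 4 (log2 2.04 ± 0.42 against CTRL, edgeR adjusted p = 0.000125). On day 5 it was at 4.02, 3.29 and 5.06 CPM against 0.430, 0.701 and 1.21 CPM in CTRL cells (log2 2.39 ± 0.40, edgeR adjusted p = 2.97e-06). Thus the means of hnRNPC cells stood at 1.18, 2.01 and 4.12 CPM on the 3 days, while those of CTRL cells stayed between 0.495 and 0.780 CPM. GBP1P1 was called on all 3 days at low counts, with log2 differences of 1.79 ± 0.72 (edgeR adjusted p = 0.0482), 1.85 ± 0.58 (0.00740) and 2.92 ± 0.51 (6.39e-06), and with 67, 68 and 76 reads per hnRNPC library on day 5. The day 3 call was lost without CTRL replicate 1 (log2 1.63), CTRL replicate 3 (1.21), hnRNPC replicate 1 (1.58) or hnRNPC replicate 3 (1.71), stood at 3.14 without CTRL replicate 2, and turned to -0.26 against GFP cells, so single libraries decide it. The day 4 call was lost without hnRNPC replicate 1 (log2 1.40). Against GFP cells in place of CTRL the log2 differences were smaller: GBP2 stood at 1.34 on day 4 and 1.14 on day 5, and GBP1P1 at 1.54 on day 5, all still called, while GBP1P1 on day 4 (1.05) was not.

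GBP3, GBP4 and GBP5 stood higher in hnRNPC cells by less than the fold asked for. On day 5 GBP3 was at 31.9, 30.9 and 27.0 CPM against 18.7, 19.3 and 20.2 CPM in CTRL cells (log2 0.62 ± 0.08), GBP4 at 20.9, 20.5 and 16.9 CPM against 11.8, 12.1 and 11.4 CPM (0.73 ± 0.11), and GBP5 at 9.86, 10.1 and 9.75 CPM against 5.86, 5.87 and 5.90 CPM (0.75 ± 0.12). None of these groups overlaps, and the edgeR adjusted p values ran from 3.36e-08 to 6.05e-07. Low p-values were common in this comparison: 8910 of all 13187 genes tested had an edgeR p below 0.05 before adjustment, in either direction. Against GFP cells of day 5 GBP4 reached a log2 difference of 1.01 and was called (edgeR adjusted p = 9.77e-10). GBP1 did not separate, at 0.126, 0.0522 and 0.140 CPM against 0.156, 0.0637 and 0.0476 CPM.

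ADAR targeting alone called no member before day 5. On day 3 none of the 6 genes was called (0 of 6 by edgeR, 0 with p below 0.05 before adjustment, 0 by DESeq2 and limma-voom), as was 0% of all genes called higher, and on day 4 again none (2 of 6 with p below 0.05 before adjustment, 0 by DESeq2 and limma-voom), against 0.0682% of all genes. GBP2 was at 1.15, 1.03 and 1.63 CPM on day 4 against 0.626, 0.364 and 0.494 CPM in CTRL cells, without overlap, and GBP1P1 stood at a log2 difference of 1.34 on day 3 and 1.23 on day 4. With the replicate number as a block GBP2 was called on day 4 (log2 1.36, edgeR adjusted p = 0.00979, against 1.38 and 0.140 without the block). On day 5 2 of 6 genes were called, against 0.273% of all genes. GBP2 was at 1.93, 1.90 and 2.18 CPM against 0.430, 0.701 and 1.21 CPM (log2 1.35 ± 0.41, edgeR adjusted p = 0.0324), and GBP1P1 at 0.507, 0.367 and 0.156 CPM against 0.0859, 0.0354 and 0.0680 CPM (log2 2.43 ± 0.55, edgeR adjusted p = 0.00549). Neither pair of groups overlaps, but both calls were fragile. GBP2 lost its call without CTRL replicate 1 (log2 1.06), CTRL replicate 2 (1.27), ADAR replicate 1 (1.38) or ADAR replicate 3 (1.28), and GBP1P1 without CTRL replicate 2 (2.15) or ADAR replicate 1 (2.03). Both were lost with limma-voom (1.46 for GBP2 and 2.31 for GBP1P1) and against GFP cells (0.10 and 1.05). GBP5 was at 8.99, 7.97 and 8.51 CPM on day 5, above all 3 CTRL libraries, by 0.53 ± 0.12 on the log2 scale (edgeR adjusted p = 0.00450). On that day 3542 of all 13187 genes tested had an edgeR p below 0.05 before adjustment, in either direction.

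GFP cells, the second control, were called for none of the 6 genes on day 3 (1 of 6 with p below 0.05 before adjustment, 0 by DESeq2 and limma-voom), day 4 (0 of 6, 0 by both tools) or day 5 (3 of 6, 1 by DESeq2 and 0 by limma-voom). Of all genes, 0.0227%, 0% and 0.212% were called in either direction. GBP2 on day 5 was at 1.03, 0.900 and 3.72 CPM, so that 1 GFP library stood near the hnRNPC cells and 2 near CTRL (log2 1.25 ± 0.41, edgeR adjusted p = 0.0528). The block on replicate number brought that value to 1.17 with an edgeR adjusted p of 0.00592. Without GFP replicate 3 the log2 difference was 0.30, without replicate 1 1.55 and without replicate 2 1.59, and GBP1P1 followed the same library, at 0.117, 0.0469 and 0.338 CPM. GBP1P1 stood at a log2 difference of 1.38, at 0.39 without replicate 3 and at 1.82 without replicate 2, the last of which was called.

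With both ADAR and hnRNPC targeted, GBP2 and GBP1P1 were called from day 3 on. On that day 2 of 6 genes were called, against 0.864% of all genes called higher. GBP2 was at 3.25, 2.39 and 3.57 CPM (log2 2.22 ± 0.42 against CTRL, edgeR adjusted p = 7.85e-05) and GBP1P1 at 0.245, 0.288 and 0.108 CPM (log2 2.56 ± 0.67, edgeR adjusted p = 0.00351, 3.91 without CTRL replicate 2). The GBP1P1 call of day 3 was lost against GFP cells, at a log2 difference of 0.51. GBP1 went the other way without a call, with 8, 5 and 0 reads per library (log2 -1.05 ± 0.83).

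On day 4 4 of 6 genes were called, against 3.4% of all genes. GBP2 reached 6.72, 6.09 and 8.92 CPM (log2 3.89 ± 0.43, edgeR adjusted p = 1.10e-09), GBP5 12.5, 12.4 and 14.6 CPM (1.20 ± 0.12, edgeR adjusted p = 5.50e-11) and GBP1 0.299, 0.343 and 0.562 CPM (2.56 ± 0.54, edgeR adjusted p = 0.000130). GBP1P1 reached 0.775, 0.695 and 1.10 CPM (3.91 ± 0.51, edgeR adjusted p = 3.55e-08). None of these groups overlaps with CTRL. GBP3, at 27.4, 31.2 and 31.7 CPM, and GBP4, at 18.2, 19.96 and 18.4 CPM, also lay above every CTRL library, by 0.72 ± 0.08 and 0.70 ± 0.11 on the log2 scale, short of the fold asked for. Of all 13187 genes tested, 8042 had an edgeR p below 0.05 before adjustment in this comparison, in either direction.

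On day 5 GBP2, GBP3, GBP4 and GBP5, the 4 members that pass the filter on low counts also without these libraries, were all called, against 9.38% of all genes called higher and 6.23% called lower. GBP1 and GBP1P1 were among the tested genes only through these libraries, so their values are given as a description. GBP1P1 was at 21.2, 23.0 and 41.8 CPM (log2 8.82 ± 0.50 against CTRL of day 5). GBP1, the initiator of the coat on bacteria, was at 14.1, 17.6 and 39.2 CPM (8.06 ± 0.50). Both had been listed at 5 to 20 counts a library in CTRL cells of that day and were listed at 1617 to 5511 counts here. GBP2 was at 44.4, 52.3 and 83.4 CPM (6.25 ± 0.45, edgeR adjusted p = 3.98e-15) and GBP5 at 62.7, 78.3 and 117 CPM (3.87 ± 0.13, edgeR adjusted p = 1.93e-25). GBP4 was at 83.3, 93.6 and 131 CPM (3.13 ± 0.12, edgeR adjusted p = 1.53e-23) and GBP3 at 76.3, 82.96 and 107 CPM (2.19 ± 0.09, edgeR adjusted p = 3.26e-23). The order of the log2 fold changes was the reverse of the order of the CPM levels in CTRL cells of that day, from GBP1P1 (0.0631 CPM) to GBP3 (19.4 CPM). Replicate 3 was the highest of the 3 libraries for all 6 genes, and the lowest of the 3 lay above every library of the other 15 groups. The median log2 fold change over all genes tested was -0.04.

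**Figure D3:**
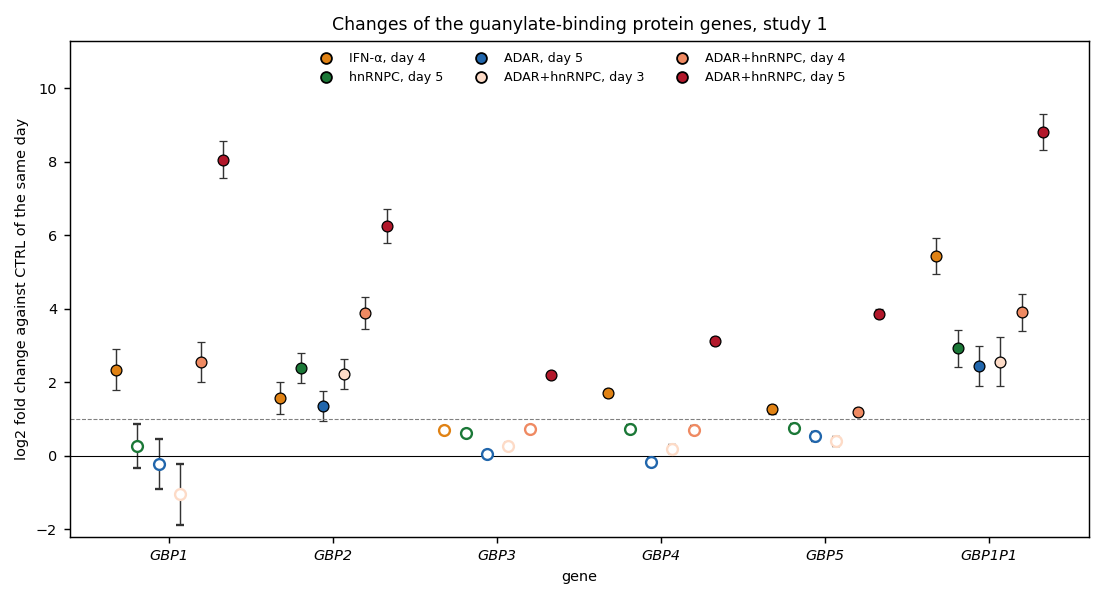
Log2 fold change of each gene against CTRL of the same day in study 1 (vertical axis) for 6 comparisons (colours), with bars for ±1 SE. Filled points were called, open points were not, and the dashed line marks a log2 fold change of 1. GBP3 passes the line only in ADAR+hnRNPC cells of day 5, at 2.19. GBP1 and GBP1P1 were among the tested genes only through that group, so their points there are a description.

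The 2 × 2 design asks whether the effect of both gRNAs exceeds the sum of their single effects on the log2 scale. On days 3 and 4 the interaction was called for none of the 6 genes. On day 3 1 of 6 had p below 0.05 before adjustment and DESeq2 and limma-voom called 0, against 0% of all genes called higher. On day 4 3 of 6 had p below 0.05 before adjustment, DESeq2 called 1 and limma-voom 0, against 3.2% of all genes, and with the block on replicate number GBP5 was called (0.34, edgeR adjusted p = 0.0461). On day 5 GBP2 to GBP5 were all called, against 24.2% of all genes called higher and 24.3% called lower, since no fold threshold is set for this term. The excess was 2.59 ± 0.23 for GBP5 (edgeR adjusted p = 8.23e-07), 2.56 ± 0.19 for GBP4 (1.58e-07), 2.52 ± 0.41 for GBP2 (0.000206) and 1.52 ± 0.15 for GBP3 (2.23e-06). For GBP1 and GBP1P1, which entered the tests through the same libraries, it was 8.01 ± 1.13 and 3.46 ± 0.78. For GBP1 neither single targeting was called on day 5 (0.27 ± 0.61 for hnRNPC and -0.22 ± 0.69 for ADAR), whereas for GBP2 the single effects of 2.39 and 1.35 made up part of the total.

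The response of ADAR+hnRNPC cells on day 5 was compared with that to IFN-α on day 4, each against CTRL of its own day, so that the 2 responses shared no control libraries. GBP2 to GBP5 were all called higher in the former, against 8.92% of all genes. The difference of the log2 fold changes was 4.69 ± 0.60 for GBP2 (edgeR adjusted p = 1.60e-08), 2.61 ± 0.16 for GBP5 (6.82e-16), 1.48 ± 0.12 for GBP3 (1.93e-13) and 1.41 ± 0.16 for GBP4 (7.53e-10). As a description, it was 5.72 ± 0.87 for GBP1 and 3.37 ± 0.83 for GBP1P1.

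On day 4, when both were measured, ADAR+hnRNPC and IFN-α-treated cells were also compared directly, a comparison added after the values were seen. GBP2 was higher in ADAR+hnRNPC cells, at 6.72, 6.09 and 8.92 against 0.992, 1.22 and 2.10 CPM (log2 2.33 ± 0.39, edgeR adjusted p = 3.20e-06). GBP1P1 was lower, at 0.775, 0.695 and 1.10 against 2.16, 2.61 and 2.72 CPM (-1.54 ± 0.36, edgeR adjusted p = 0.000311), as was GBP4, at 18.2, 19.96 and 18.4 against 36.8, 39.7 and 38.0 CPM (-1.02 ± 0.11, edgeR adjusted p = 5.47e-10). None of these groups overlaps, and 6.17% of all genes were called in either direction. The fold of GBP4 sat at the threshold and its call was lost with DESeq2, without ADAR+hnRNPC replicate 1 (-0.99) or without IFN-α replicate 2 (also -0.99). GBP3 (0.01 ± 0.08), GBP5 (-0.07 ± 0.11) and GBP1 (0.22 ± 0.44) were not called, and their libraries overlapped between the groups. On the same day, then, overlapping levels of GBP3 and GBP5 went with levels of GBP2 and GBP4 that did not overlap.

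Levels across all 16 groups of study 1 show where each gene stood apart. GBP4 averaged 103 ± 25 CPM (SD, n = 3) in ADAR+hnRNPC cells of day 5 and 38.2 ± 1.5 CPM with IFN-α, then 19.5 ± 2.2 CPM in hnRNPC cells of day 5 and 18.9 ± 1.0 CPM in ADAR+hnRNPC cells of day 4, which did not differ beyond their spread. GBP5 averaged 86.0 ± 27.8 CPM, then 13.8 ± 0.7 CPM with IFN-α and 13.2 ± 1.2 CPM in ADAR+hnRNPC cells of day 4, again within their spread, then 9.91 ± 0.20 CPM in hnRNPC cells of day 5. For GBP3 the group of day 5 at 88.8 ± 16.1 CPM was followed by ADAR+hnRNPC cells of day 4 (30.1 ± 2.4 CPM), hnRNPC cells of day 5 (29.9 ± 2.6 CPM) and IFN-α (29.8 ± 2.9 CPM), 3 groups that did not differ beyond their spread. GBP2 stood out because IFN-α was not near the top. It averaged 60.005 ± 20.6 CPM and 7.24 ± 1.49 CPM in ADAR+hnRNPC cells of days 5 and 4, 4.12 ± 0.89 CPM in hnRNPC cells of day 5, and 1.44 ± 0.58 CPM with IFN-α, within the spread of GFP cells of day 5 (1.88 ± 1.59 CPM). GBP1P1 averaged 28.6 ± 11.4 CPM, then 2.496 ± 0.292 CPM with IFN-α and 0.857 ± 0.215 CPM in ADAR+hnRNPC cells of day 4. GBP1 averaged 23.6 ± 13.6 CPM, then 0.401 ± 0.141 CPM in ADAR+hnRNPC cells of day 4 and 0.348 ± 0.175 CPM with IFN-α, within their spread, and lay between 0.0351 and 0.128 CPM in the other 13 groups.

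Over the means of the 16 groups, which share the control cells and the extreme day 5 group, Pearson's r of log2 CPM between 2 members ran from 0.795 (GBP2 and GBP4) to 0.967 (GBP3 and GBP5), given as a description. The gene nearest in pattern to GBP1 was CD274 (r = 0.969), which encodes PD-L1, followed by RIPK2 (0.967) and RIPK1 (0.966). Among the genes near GBP2 were RP9P (0.977) and ANXA2R (0.977). Nearest to GBP3 were USP15 (0.989), DNAJC2 (0.987) and SLFN12 (0.985), and nearest to GBP4 the interferon-induced ubiquitin ligase DTX3L (0.987), IFI35 (0.986) and PML (0.985). GBP5 ran closest to BATF2 (0.993), TNFSF10 (0.990), which encodes TRAIL, and APOL6 (0.983). GBP1P1 ran closest to the exonuclease ISG20 (0.982), IFIT2 (0.977) and SEPTIN4 (0.968).

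In study 2 GBP1 and GBP1P1 fell below the filter on low counts, and 4 of the 6 genes were tested. Targeting hnRNPC called none of the 4 (2 with p below 0.05 before adjustment, 0 by DESeq2 and limma-voom), against 0.279% of all genes called higher. ADAR targeting alone called 2 of 4, against 2.04% of all genes, where the median log2 change of all genes was 0.07. GBP5 was at 13.5 and 9.71 CPM against 4.39 and 3.10 CPM in CTRL cells (log2 1.63 ± 0.25, edgeR adjusted p = 0.000547) and GBP2 at 16.2 and 10.3 CPM against 5.35 and 4.06 CPM (1.49 ± 0.29, edgeR adjusted p = 0.00331). Neither gene overlapped between the groups. The GBP2 call was lost without CTRL replicate 2 (log2 1.31) or ADAR replicate 1 (1.13). GBP3 (29.9 and 27.2 against 21.9 and 15.6 CPM, log2 0.61 ± 0.17) and GBP4 (11.8 and 9.44 against 9.49 and 7.89 CPM, log2 0.29 ± 0.23) were not called. The 2 genes under the filter stood higher as well, without a test: GBP1 was at 1.43 and 0.886 against 0.298 and 0.156 CPM, and GBP1P1 at 2.02 and 0.665 against 0.157 and 0.156 CPM.

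In ADAR+hnRNPC cells of study 2, 3 of the 4 genes were called in total RNA, against 3.35% of all genes, and 3 of 4 in cytosolic RNA, against 6.65%. In total RNA GBP2 was at 25.7 and 15.7 CPM (log2 2.14 ± 0.29, edgeR adjusted p = 7.98e-05), GBP5 at 19.98 and 11.7 CPM (2.08 ± 0.25, edgeR adjusted p = 2.69e-05) and GBP4 at 22.8 and 15.4 CPM (1.14 ± 0.23, edgeR adjusted p = 0.00173). Replicate 1 was the higher of the pair for each, and without it the GBP4 value fell to 0.83 on the log2 scale and lost its call. GBP3 was at 37.8 and 25.9 CPM (0.76 ± 0.17), and was called without CTRL replicate 1 (1.03) or ADAR+hnRNPC replicate 2 (1.01). In cytosolic RNA GBP5 was at 23.5 and 17.6 against 2.94 and 2.69 CPM (2.86 ± 0.26, edgeR adjusted p = 4.79e-07), GBP2 at 29.5 and 19.5 against 3.41 and 4.26 CPM (2.68 ± 0.30, edgeR adjusted p = 4.29e-06) and GBP3 at 54.4 and 47.5 against 24.8 and 22.6 CPM (1.10 ± 0.17, edgeR adjusted p = 8.77e-05). GBP4, at 22.4 and 15.1 against 10.6 and 8.75 CPM, stayed under the fold asked for (0.95 ± 0.23), and was called without CTRL replicate 1 (1.10) or ADAR+hnRNPC replicate 2 (1.21). The median log2 change of all genes was -0.12 in total and -0.07 in cytosolic RNA. As in study 1, GBP2 and GBP5 lay ahead of GBP3 and GBP4 by fold; the gRNAs, the clone and its STING genotype differ between the studies together, so their effects cannot be told apart. GBP2 in CTRL cells lay at 0.364 to 1.21 CPM in study 1 and at 5.35 and 4.06 CPM in total RNA of study 2, from tables scaled separately and not tested against each other.

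No member was called between compartments. Averaged over the 4 gRNA groups, cytosolic against total RNA called 0 of 4 genes (edgeR, 1 with p below 0.05 before adjustment, 0 by DESeq2 and limma-voom), against 8.84% of all genes called in either direction, and the median log2 difference of all genes was 0.17. GBP3 stood at a log2 difference of 0.39 ± 0.08 (edgeR adjusted p = 0.000422), GBP4 at 0.05 ± 0.11, GBP5 at -0.07 ± 0.12 and GBP2 at -0.26 ± 0.14. In hnRNPC cells, cytosolic against nuclear RNA also called 0 of 4 (edgeR, 1 with p below 0.05 before adjustment, 0 by DESeq2 and limma-voom), against 30.5% of all genes, whose median was 0.27. GBP3 was at 26.7 and 28.4 CPM in the cytosol against 16.04 and 16.9 CPM in the nucleus (log2 0.74 ± 0.17, edgeR adjusted p = 0.000869), whereas GBP2 was at 3.12 and 2.89 against 4.38 and 4.84 CPM (-0.62 ± 0.30, edgeR adjusted p = 0.0789). Thus GBP3 was the one tested member whose cytosolic level exceeded both total and nuclear RNA at an adjusted p under the threshold, by less than the fold asked for. A low p was common among all genes in these comparisons. Of 13637 genes, 10629 had an edgeR p below 0.05 before adjustment against total RNA, and 9963 against nuclear RNA, in either direction.

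**Figure D4:**
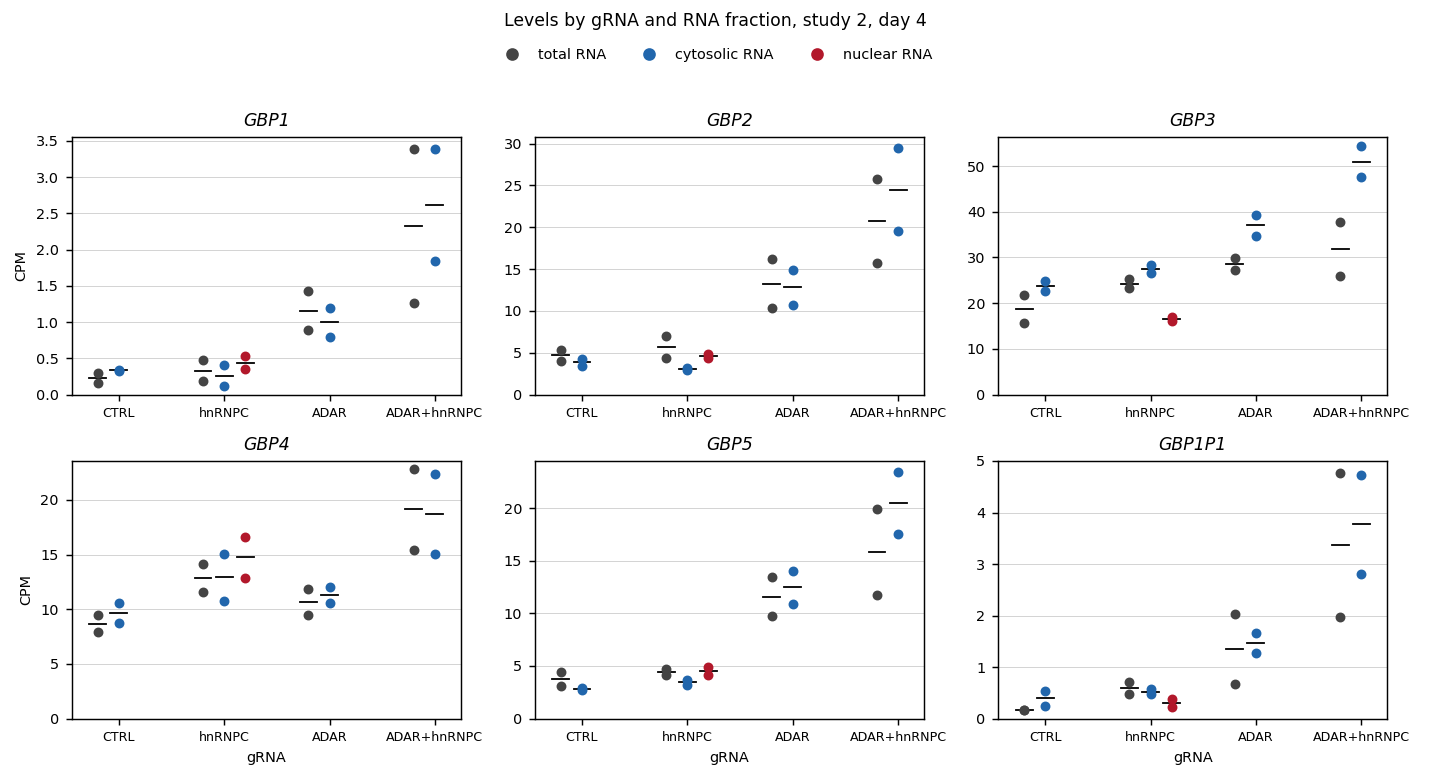
Level of each gene (CPM, a scale of its own in each panel) by gRNA and RNA fraction in study 2, with 2 libraries a group as points and their mean as a line. In ADAR+hnRNPC cells total and cytosolic values lie above CTRL for all 6 genes, for GBP5 at 19.98 and 11.7 CPM (total) and 23.5 and 17.6 CPM (cytosolic) against 2.69 to 4.39 CPM in CTRL.

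Reads in introns were followed through the intron counts of study 1. These counts cannot tell unspliced transcript from intron sequence kept in spliced RNA. Of the 59 introns of the canonical transcripts 50 were in the table, 10 each of GBP1 to GBP5, and none passed an average log2 CPM of at least 1, so no member intron was tested. Summed intron counts were compared without a test. In GBP3 they were 2.86 ± 0.15 CPM (SD, n = 3) in CTRL cells and 14.2 ± 3.2 CPM in ADAR+hnRNPC cells of day 5, or 14.7% and 15.9% of the gene's own count. In GBP4 they were 0.895 ± 0.099 and 8.32 ± 1.08 CPM (7.62% and 8.26%), and in GBP5 0.745 ± 0.091 and 8.95 ± 2.73 CPM (12.7% and 10.5%). For these 3 genes the intron counts kept a like ratio to the gene counts in both groups. GBP2 had 0.347 ± 0.060 CPM in CTRL cells, or 50.7% ± 21.1 of its small count, and 9.24 ± 2.22 CPM, or 15.7% ± 1.5, in ADAR+hnRNPC cells. Intron 2 of GBP3 (chr1:89481098-89486214) was the most abundant member intron. With the threshold on low counts lowered to an average log2 CPM of 0 it was called higher in hnRNPC cells of days 4 and 5 (log2 1.24 ± 0.21 and 1.35 ± 0.21) and in ADAR+hnRNPC cells of days 4 and 5 (1.60 ± 0.21 and 2.82 ± 0.21), while 3.67%, 6.16%, 4.14% and 13.8% of all 42211 introns were called in either direction. It was not called with IFN-α (0.95 ± 0.21) or on day 3 (0.85 ± 0.21 in hnRNPC and 0.81 ± 0.21 in ADAR+hnRNPC cells), where 1%, 2.27% and 1.55% of all introns were.

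GBP4 is the only member whose transcript holds one of the regions that the submitters counted for clusters of A-to-I editing. The region is 2122 bases in the 3′ UTR of GBP4 (chr1:89648439-89650560), and its reads are part of the GBP4 count, so its level is given without a test. It was at 3.65 ± 0.15 CPM (SD, n = 3) in CTRL cells of day 5, 6.63 ± 0.75 CPM in hnRNPC cells and 32.7 ± 7.6 CPM in ADAR+hnRNPC cells of that day, and at 12.4 ± 0.07 CPM with IFN-α. Its share of the GBP4 count stayed within 28.2% and 40.0% over all 48 libraries, so that the region followed its gene. In study 2 the share ran from 25.1% to 35.1% over the 18 libraries.

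Most edited sites in the family lay in that same UTR. The submitters' tables listed 63 sites inside the 6 genes in study 1, of which 49 were in the 3′ UTR of GBP4 (chr1:89648193-89649594), 6 in an intron of GBP3 on its own strand and 8 in an intron of GBP3 on the opposite strand. In study 2 they listed 66, of which 45 were in the 3′ UTR of GBP4, 6 in that intron of GBP3 and 15 in coding exons (5 of GBP2 and 10 of GBP5). Over the sites of the GBP4 3′ UTR, 6.80% ± 1.81 of the reads at these positions were edited in CTRL cells of day 5 (SD, n = 3, 3151 reads in all), 8.30% ± 0.70 in hnRNPC cells, 3.32% ± 0.29 in ADAR cells and 5.65% ± 0.31 in ADAR+hnRNPC cells (25759 reads). With IFN-α the share was 11.7% ± 0.92, against 8.24% ± 1.09 in CTRL cells of day 4. Every ADAR library of study 1 lay between 2.78% and 4.15%, below every CTRL library (5.11% to 9.42%), and every IFN-α library lay above them (11.01% to 12.7%). ADAR+hnRNPC libraries of day 3 (4.31% to 5.22%) lay below all CTRL libraries of that day (7.43% to 8.24%), and those of day 4 (2.98% to 4.65%) below CTRL of day 4 (7.27% to 9.42%). ADAR+hnRNPC libraries of day 5 (5.31% to 5.91%) overlapped with CTRL of that day (5.11% to 8.71%). In total RNA of study 2 the share was 10.3% ± 0.35 (n = 2) in CTRL cells, 10.1% ± 0.15 in hnRNPC cells, 3.33% ± 0.21 in ADAR cells and 3.35% ± 1.18 in ADAR+hnRNPC cells. One read can cover several sites, so the reads are not independent, and these shares were not tested. The study chose its sites by editing in its own RNA-seq libraries, and each had to pass in an ADAR wild-type sample. Lower shares in ADAR cells can therefore be partly set by the choice of sites. Sites also needed a minimum of reads, which groups with more GBP4 reads reach more easily. At the coding sites of GBP2 and GBP5, 0% to 11.32% of reads were edited per library in GBP2 and 0% to 4.92% in GBP5 (0 of 171 reads in GBP2 and 2 of 325 in GBP5 in total RNA of CTRL cells).

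One site is shown because it had at least 10 reads in all 66 libraries and the higher edited share of the 2 sites for which that held. It lies at chr1:89649462 on the minus strand (GRCh37) in the 3′ UTR of GBP4, and the 29 bases around it (chr1:89649448-89649476) are given 5′ to 3′ on the strand of the gene, with the edited adenosine in capitals.
GBP4 3′ UTR site: gtcctttcacctcaAccccccacatagct
In CTRL cells of day 5 48.9% ± 14.4 of its reads were edited (SD, n = 3, 84 reads), in ADAR cells 19.9% ± 10.3 (68 reads) and in ADAR+hnRNPC cells 38.3% ± 1.7 (739 reads). In hnRNPC cells of day 5 the share was 62.1% ± 8.4 (164 reads), and with IFN-α 61.3% ± 2.0 (212 reads) against 41.2% ± 8.3 (91 reads) in CTRL cells of day 4. The ADAR and CTRL libraries of day 5 did not overlap (9.09% to 29.6% against 33.3% to 61.8%), whereas those of ADAR+hnRNPC and CTRL cells did. On day 3 the ADAR libraries (21.1% to 25.7%) also lay below CTRL (30% to 57.6%), but on day 4 they lay within its range (33.3% to 36.8% against 32% to 48.3%). In cytosolic RNA of study 2 ADAR libraries (27.3% to 38.9%) overlapped with CTRL (38.1% to 40%). Like the other sites, this site was chosen by editing in the study's own libraries, so its shares in ADAR cells carry the same limit.

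**Figure D5:**
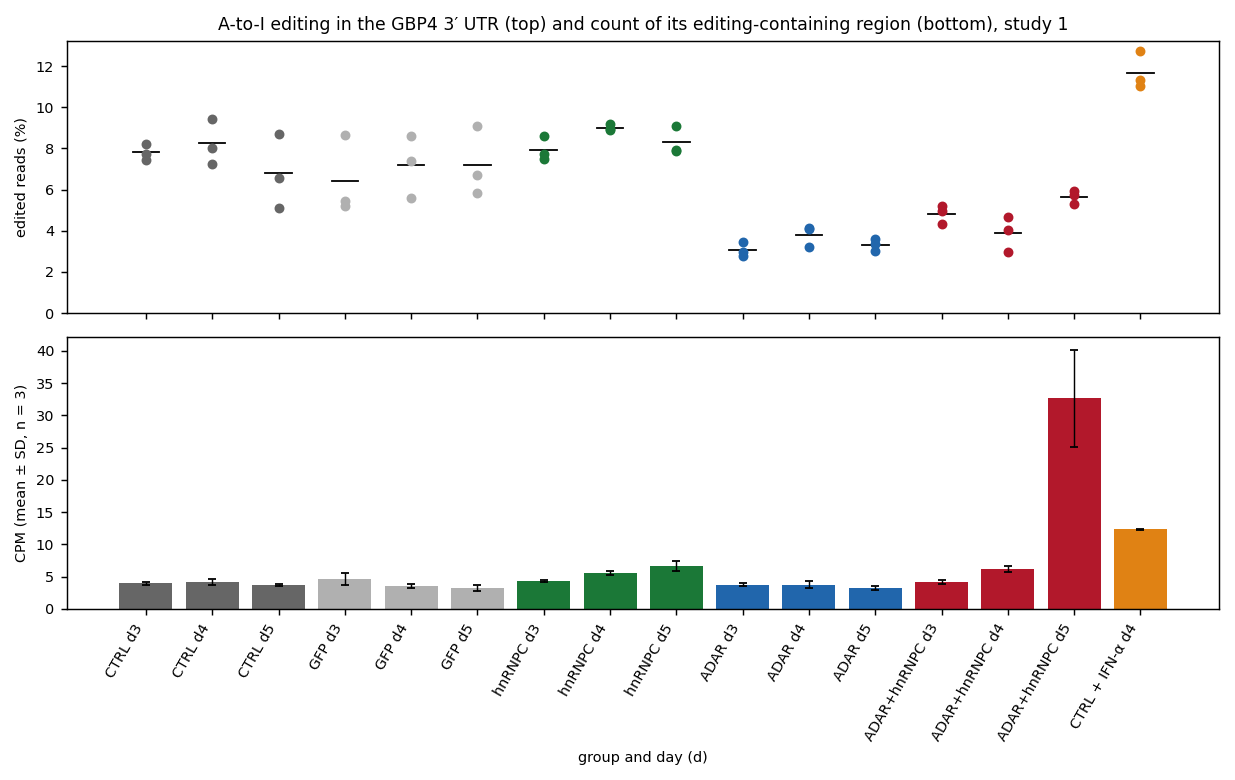
Edited share of reads (%) over 49 sites of the GBP4 3′ UTR in each library of study 1, with lines for the means of 3 (top), and the level of the region of editing clusters in that UTR as mean ± SD in CPM (bottom), by group and day. The sites were chosen by editing in the study's own libraries. ADAR libraries lie between 2.78% and 4.15% in the top panel, overlapping with the ADAR+hnRNPC libraries of day 4 (2.98% to 4.65%), and IFN-α libraries lie highest (11.01% to 12.7%), while the bottom panel peaks at 32.7 CPM in ADAR+hnRNPC cells of day 5.

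Of 17 genes in a list of signalling and transcription factors placed upstream of GBP genes, 15 were tested. Several were called higher in the same comparisons as the family, and their binding to any promoter was not measured. With IFN-α 4 of the 15 were called higher, against 1.21% of all genes. In ADAR+hnRNPC cells of study 1 it was 3 on day 4 (3.4% of all genes) and 8 on day 5 (9.38%), and in total RNA of study 2 it was 4 (3.35%). With IFN-α, STAT2 (log2 1.73 ± 0.10) and IRF9 (2.60 ± 0.31), parts of the complex that binds the interferon-stimulated response element, were called higher in study 1, as was BATF2. IRF1, which binds the same element, stood at 0.55 ± 0.11 with IFN-α without a call. In ADAR+hnRNPC cells of day 4 IRF1 (1.05 ± 0.11), IRF9 (1.98 ± 0.31) and BATF2 were called higher, and STAT2 stood at 0.43 ± 0.10 without a call. On day 5 IRF1 (3.02 ± 0.11), STAT2 (2.47 ± 0.10), IRF9 (2.88 ± 0.31), IRF2, NLRC5, JAK2 and BATF2 were called higher, and IRF8 was called lower. In study 1 ADAR targeting alone called none of these genes on any day, and hnRNPC targeting alone called BATF2 on day 5. In total RNA of ADAR+hnRNPC cells of study 2 IRF1 (1.58 ± 0.19), IRF9 (1.59 ± 0.24) and BATF2 were called higher.

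Of 8 related or other interferon-inducible GTPase genes, 5 were tested in study 1. GBP6, GBP7 and IRGM were under the filter. Over all genes tested, 1.21% were called higher with IFN-α and 9.38% in ADAR+hnRNPC cells of day 5, which is the background for the counts of each list. The antiviral GTPases MX1 and MX2 were called with IFN-α (log2 8.11 ± 0.23 and 4.07 ± 0.12) together with RNF213, and GVINP1 (0.87 ± 0.18) and IRGQ (-0.32 ± 0.07) were not. In ADAR+hnRNPC cells of day 5 4 of 5 were called higher, MX1 at 8.55 ± 0.23, MX2 at 4.97 ± 0.13, GVINP1 at 1.31 ± 0.18, and RNF213. For MX1 the response of ADAR+hnRNPC cells on day 5 did not exceed that to IFN-α by a called amount, and RNF213 was the 1 gene of this list for which it did. GBP2 to GBP5 were all called higher in that comparison, against 8.92% of all genes. So were 5 of the 15 tested signalling and transcription factors, with 1 called lower, and 4 of the 11 tested genes of the inflammasome list below.

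Of 13 genes in a list of inflammasome, pyroptosis and other genes linked to GBP proteins, 11 were tested (not CASP5 and AIM2). PIM1, a kinase known to phosphorylate GBP1, and the APOL genes, which encode apolipoproteins L, are on it but are no inflammasome genes. IFN-α called 2 higher (APOL1 and APOL3), and CASP4, the sensor of bacterial lipopolysaccharide that GBP coats recruit, stood at a log2 difference of 0.47 ± 0.06, CASP1 at 0.63 ± 0.07 and GSDMD, the pore-forming effector, at 0.56 ± 0.10 without a call. ADAR+hnRNPC cells of day 5 called 6 higher, CASP1 (1.20 ± 0.07), IL1B, APOL1, APOL2, APOL3 and PIM1, while CASP4 (0.51 ± 0.06), GSDMD (0.67 ± 0.10) and NLRP3 (0.15 ± 0.05) did not reach the fold. The median over the 11 genes was 1.20 in that comparison and 0.47 with IFN-α.

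Of the 5 prenylation enzymes, which attach and process the lipid anchor of GBP1, GBP2 and GBP5, all were tested and IFN-α called none (edgeR). In ADAR+hnRNPC cells of day 5 1 was called lower, the carboxyl methyltransferase ICMT, against 6.23% of all genes called lower. FNTA (0.37 ± 0.06), FNTB (-0.30 ± 0.08), PGGT1B (0.70 ± 0.06) and RCE1 (-0.02 ± 0.09) stayed within the fold threshold. The interaction term of day 5, which has no fold threshold, called FNTA (0.61 ± 0.09) and PGGT1B (0.89 ± 0.08), the shared and the type I geranylgeranyl subunits, higher and RCE1 (-0.49 ± 0.10) and ICMT lower. Of all genes, this term called 24.2% higher and 24.3% lower, so calls of this kind were common.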

How the data were processed

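RNA-seq libraries of THP-1 cells were analysed from the gene, intron, editing-region and editing-site counts that the authors deposited. The authors aligned TruSeq stranded total RNA reads with STAR 2.5.4a to GRCh37 and assigned unique reads to GENCODE V19 features with featureCounts, so the deposited values are raw counts. Library totals ran from 95107690 to 152829008 in study 1 and from 49666958 to 73873756 in study 2. No deposited column of per-sample values was left unmapped. Here, edgeR 4.0.16 (R 4.3.3) fitted quasi-likelihood models to each study's libraries together after TMM scaling, with 12 libraries of 1 day for each interaction. Genes had to reach an average log2 CPM of 0.5 and introns of 1. RPKM used the canonical transcript length of a later GENCODE release than the V19 used for counting. Alternatives were DESeq2 1.42.0, limma-voom (limma 3.58.1), DESeq2 size factors, no filter, fewer or more groups in the fit, a replicate block, GFP as control, leaving out each library, a lower intron threshold and a minimum of 10 reads per editing site. The edgeR test was tried on simulated data with 200 changed genes, and recovery was counted by adjusted p alone, without the fold threshold. In ADAR+hnRNPC day 5 against CTRL (13187 genes) 100% of genes changed 2-fold and 100% of those changed 4-fold were recovered. In study 2 total RNA (13637 genes) it was 88% and 100%. These rates therefore do not describe the calls, which also need the fold. Separate rates for genes with the low counts and wide spread of GBP1, GBP2 and GBP1P1 were not obtained.

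The members and lists were chosen with earlier results of these data known. Named genes were all members, the targeted genes, the first 4 tested genes of each pathway list and the 3 genes nearest in pattern to each member. Some genes that this rule names are not reported here. List genes named without a value were named after their calls were seen, as was the direct comparison of ADAR+hnRNPC with IFN-α cells. Libraries with the same number deviated together, with every correlation above 0.1, in 8 of 15 two-group comparisons of study 1. No pair of libraries of 1 group matched within sampling noise (chi-square per gene of at least 12.1 in study 1 and 13.1 in study 2).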

Additional observations from a re-analysis of the deposited data

Results flagged for a closer look

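The response of ADAR+hnRNPC cells on day 5 was set against that to IFN-α on day 4, each against CTRL of its own day. The difference departed from 0 by edgeR's test, at 4.69 for GBP2, 1.48 for GBP3, 1.41 for GBP4 and 2.61 for GBP5 on the log2 scale. For GBP1 and GBP1P1 it stood at 5.72 and 3.37, given as a description. The 2 responses were taken on different days, so the day and the treatment cannot be told apart in these values.

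The interaction of ADAR and hnRNPC targeting on day 5 also differed from 0 by edgeR's test, at 2.52 for GBP2, 1.52 for GBP3, 2.56 for GBP4 and 2.59 for GBP5 on the log2 scale. For GBP1 and GBP1P1 it stood at 8.01 and 3.46. In both comparisons GBP1 and GBP1P1 passed the filter on low counts only through the ADAR+hnRNPC libraries of day 5, so their values are a description.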

How the results depend on the processing

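Over all alternatives, 1799 of 1845 member values kept a call in the same direction or stayed without a call. Of the rest, 28 lost a call, 17 gained one and 1 called value changed sign (GBP1P1 in hnRNPC cells of day 3, -0.26 against GFP cells). Values without a call in either fit were counted as kept whatever their sign. GBP1P1 in ADAR cells of day 3, for example, stood at 1.34 against CTRL and -0.71 against GFP cells. The counts of called members stayed at 6 for ADAR+hnRNPC on day 5, its difference from IFN-α and the interaction of day 5 (GBP1 and GBP1P1 entered these through the same libraries), and at 4 for ADAR+hnRNPC on day 4. Without the filter the counts were 1 for ADAR on day 4, 1 and 2 for GFP on days 3 and 5, and in study 2 1 for hnRNPC, 4 for ADAR, and 5 and 5 for ADAR+hnRNPC in total and cytosolic RNA, where more members were tested than with it. Against GFP cells they were 0, 1 and 3 for hnRNPC on days 3, 4 and 5 (GBP4 gained a call at 1.01), 0 for ADAR on day 5 and 1 for ADAR+hnRNPC on day 3. limma-voom called 1 for hnRNPC on day 4 and 0 for ADAR on day 5, DESeq2 called 1 each for ADAR on day 5, GFP on day 5 and the interaction of day 4, and a fit to the compared groups alone called 0 for hnRNPC on day 3. The cause of these changes was otherwise not tested. Leaving out 1 library gave 0 to 1 for hnRNPC on day 3, 1 to 2 on day 4, 0 to 2 for ADAR and for GFP on day 5, and in study 2 1 to 2 for ADAR, 2 to 4 for ADAR+hnRNPC in total and 3 to 4 in cytosolic RNA. Where that left 1 library in a group, it was assumed to vary like the others. At an intron threshold of 0, 1 member intron was called in each of hnRNPC and ADAR+hnRNPC on days 4 and 5, against 0. Leave-one-out, limma-voom and block fits were not run for introns because no member intron was tested. With at least 10 reads per site in every library, 4 of 63 and 25 of 66 sites remained, and the edited share of the GBP4 3′ UTR on day 5 was 15.7% in CTRL, 5.94% in ADAR and 11.26% in ADAR+hnRNPC cells. Counts of 5 to 20 reads limit GBP1 in CTRL cells.

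With the replicate block the count was 1 in place of 0 for ADAR on day 4, GFP on day 5 and the interaction of day 4, and no other count changed. Over all same-numbered pairs of study 1 the median correlation of deviations was 0.169, with 61.1% over 0.1, against -0.082 for different numbers.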
